A study of Mus musculus with 8 samples.

Results

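The transcripts described here encode the proteins of the cytosolic ribosome. Members were taken by name from the 2 deposited lists of m6A peaks. A gene counted when its name began with Rpl or Rps and a digit, or with Rplp or Rpsa, and names beginning with Rps6k, which are ribosomal S6 kinases, were left out. Of the 6487 genes with a peak in either list, 68 had such a name. They were 59 protein-coding names and 9 names that the authors' gene_biotype column calls pseudogenes, which are given apart. The protein-coding names held 30 of the 8397 control peaks and 68 of the 6709 knockout peaks. Among the 59 names, 53 are subunit proteins, 5 are paralogs or retrocopies (Rpl22l1, Rpl7l1, Rpl36al, Rps27rt and Rpl36a-ps1) and 1, Rps19bp1, encodes a protein that binds Rps19 and is no part of the ribosome.

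m6A, a methyl mark on adenosines within RNA, was mapped in primary hepatic stellate cells of C57BL/6J mice by precipitating fragmented RNA with an antibody against the mark. Control cells are labelled wild type, and cKO cells come from mice that lack the m6A methyltransferase gene Mettl3 in stellate cells only. All cells had been kept in culture for 7 days, in which they activate spontaneously. Each genotype has 2 precipitated and 2 input libraries, but only 1 peak list, so no value below has a replicate error and no difference between the genotypes was tested. The sources used here do not give the driver of the deletion, the age of the mice or whether the libraries came from separate animals. Mettl3 RNA was not analysed, so the lists do not check the deletion. All intervals are exact Clopper-Pearson 95% intervals and cover counting error only. Among the markers of stellate cells, 10 of 15 had a control peak and 13 of 15 a cKO peak, with Acta2, Des and Pdgfrb found in at least 1 list. None of 7 hepatocyte markers had a peak in either list, while endothelial markers did in 4 of 6 (control) and 3 of 6 cases (cKO), macrophage markers in 1 of 7 in each, and cholangiocyte markers in 0 and 1 of 5. Those lists count peaks and not RNA levels, and the part of other cells in the results was not tested.

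A cytosolic ribosome joins a large subunit, whose proteins have names in Rpl, to a small subunit, whose proteins have names in Rps. The flexible stalk of P proteins on the large subunit recruits translation factors. Ribosomal protein mRNAs are short and abundant, and most begin with a run of pyrimidines after the cap, the 5′ terminal oligopyrimidine (TOP) element, through which growth signals control their translation. Several of their introns carry small nucleolar RNAs (snoRNAs), which guide the modification of ribosomal RNA. m6A itself is usually densest near stop codons and in long exons.

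Several cKO peaks covered an annotated start of a transcript or began just after it. The sequences around those starts are shown because TOP elements lie there in most transcripts of this family. RefSeq starts of the GRCm38.p6 assembly, which is the mm10 build, were available for 53 cKO peaks and 22 control peaks of protein-coding members. Of these, 8 cKO peaks (15.1%, 6.75 to 27.6) and 0 control peaks (0 to 15.4%) covered at least 1 of the first 50 bases of a transcript. Among the other peaks the shares were 8.56% in cKO and 1.33% in control, and 14.3% and 1.85% in genes of up to 12 kb, so cKO peaks had the larger share outside the family too. The Rpl24 and Rpl37 peaks began 29 and 32 bases after the annotated start and do not reach the letters printed for them. Relative to the annotated start, the Rpl12 and Rplp2 peaks began upstream, at -63 and -44. The Rpl38 peak began at base 114668552, upstream of its printed window. That base lies 734 bases into the Rpl38 gene span, so the start used for Rpl38 is not the first one annotated. Each line gives the gene strand from 15 bases before to 15 bases after the annotated start, with the letters CTTTC in capitals.
Rplp2: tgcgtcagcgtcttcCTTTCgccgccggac
Rpl38: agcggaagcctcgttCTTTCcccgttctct
Rps27rt: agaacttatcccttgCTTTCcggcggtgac
Rpl12: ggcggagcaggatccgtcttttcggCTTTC
Rpl24: agaaagctgttgctaggaaacagactgggc
Rpl36a: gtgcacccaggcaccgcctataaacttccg
Rpl37: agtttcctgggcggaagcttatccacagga
Rpl7l1: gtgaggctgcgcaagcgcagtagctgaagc
The windows are chr7:141447636-141447665 on the plus strand for Rplp2, chr11:114668565-114668594 on the plus strand for Rpl38, chr9:114982725-114982754 on the minus strand for Rps27rt and chr2:32961697-32961726 on the plus strand for Rpl12. Those of the other genes are chr16:55966260-55966289 for Rpl24, chrX:134585639-134585668 for Rpl36a and chr15:5116598-5116627 for Rpl37, all on the plus strand, and chr17:46782642-46782671 on the minus strand for Rpl7l1. Counted from the start used for each window, the motif began at base 1 in Rplp2, Rpl38 and Rps27rt, and at base 11 in Rpl12. The windows of Rpl24, Rpl36a, Rpl37 and Rpl7l1 do not hold it on the gene strand. CTTTC was chosen after these sequences were seen. On the gene strand it was present in this 30-base window in 16 of 57 RefSeq subunit genes (28.1%, 17.0 to 41.5) and in 4.76% of all 27025 genes of the table. On either strand, which adds the letters GAAAG, the shares were 31.6% and 8.83%. Subunit genes with a cKO peak held it on the gene strand in 10 of 39 cases (25.6%, 13.0 to 42.1) and those with no peak in either list in 5 of 17 (29.4%, 10.3 to 56.0). Starts differ between annotations, and a match is a description of the letters only.

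Ribosomal protein transcripts carried m6A peaks mostly in the cKO list. Of the 59 protein-coding names, 31 were found in cKO cells alone (52.5%, 39.1 to 65.7), 24 in both lists (40.7%, 28.1 to 54.3) and 4 in the control list alone (6.78%, 1.88 to 16.5). Over all 6487 genes with a peak the shares were 23.1% in the cKO list alone, 43.1% in both and 33.7% in the control list alone. Without a threshold the share in both lists was thus near the background, and the excess of cKO-only names stood against a deficit of control-only names. With only peaks of fold 5 or more, the share of ribosomal protein names in both lists was 27.8% (15 of 54). With folds of 10 or more it was 16.2% (6 of 37). The share of all genes in both lists was not computed at those thresholds. Among peaks of fold enrichment 10 or more the share in the cKO list alone was 75.7% (28 of 37 genes, 58.8 to 88.2), against 22.2% of all genes with such a peak. Among peaks with a p-value of at most 1e-05 it was 58.5% (31 of 53), against 23.4%. RNA abundance was not analysed here, and a change in the mark and a change in the amount or recovery of the transcript cannot be told apart from peak lists.

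Both subunits shared this pattern. RefSeq lists 77 subunit genes under these names, of which 24 had a control peak (31.2%, 21.1 to 42.7) and 51 a cKO peak (66.2%, 54.6 to 76.6). Of the 78 mitochondrial ribosomal protein genes in RefSeq, 29 had a control peak (37.2%) and 27 a cKO peak (34.6%). Over all genes, 4986 had a control peak and 4300 a cKO peak, among 6487 with a peak in either list. A share over all RefSeq genes or over expressed genes was not computed. Whether the subunit shares, with or without a peak, differ from those of genes in general was therefore not tested. For the large subunit the control count was 17 of 43 genes and the cKO count 32 of 43. For the small subunit they were 7 of 31 and 17 of 31. Of the 3 stalk genes, Rplp0 and Rplp2 had a cKO peak, Rplp1 had none, and none had a control peak. A further 24 subunit genes (31.2%) had no peak in either list, among them Rpl3, Rpl11, Rps14, Rps19 and Rps27a. Their median gene length was 2.94 kb, close to the 3.17 kb of those with a peak.

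**Figure D1:**
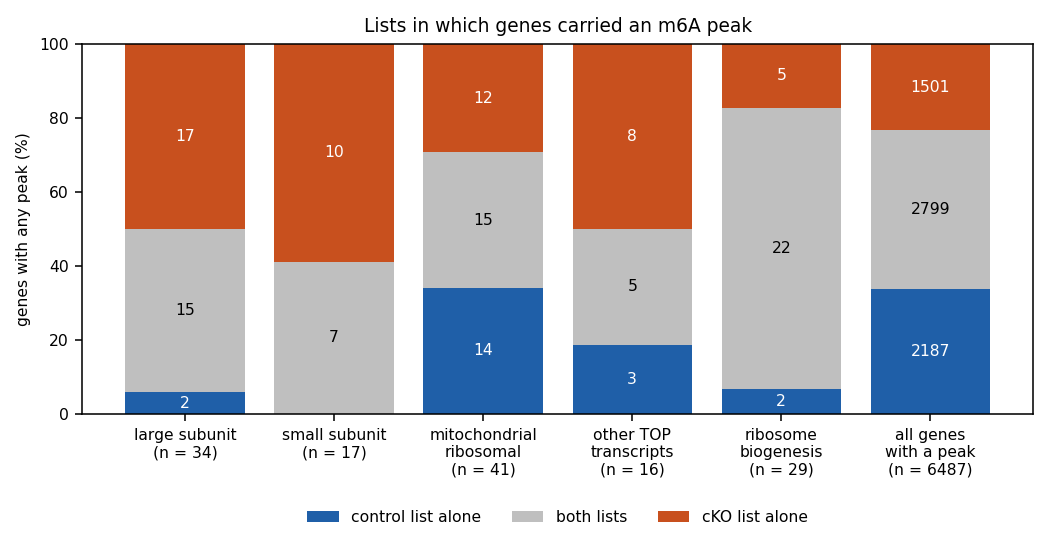
Share of genes with any m6A peak (vertical axis, percent) that had it in the control list alone (blue), in both lists (grey) or in the cKO list alone (orange), with the number of genes printed in each segment. Large and small subunit genes had 17 of 34 and 10 of 17 names in the cKO list alone, against 1501 of 6487 genes overall.

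Other lists related to the ribosome are given side by side, and no difference between lists was tested. Mitochondrial ribosomal protein genes, whose products form the separate ribosome of mitochondria, had 12 of 41 names in the cKO list alone (29.3%, 16.1 to 45.5), 15 in both and 14 in the control list alone. Examples are Mrpl41 with folds of 302 in control and 48.2 in cKO, Mrps34 with 111 in the control list alone and Mrpl40 with 31.3 in the cKO list alone. Ribosome biogenesis factors had 22 of 29 in both lists (75.9%, 56.5 to 89.7) and 5 in the cKO list alone, with Utp3 at folds of 880 and 162 and the pseudouridine synthase gene Dkc1 at 83.5 in the cKO list alone. Among 16 further genes with peaks in a list of TOP transcripts, 8 were in the cKO list alone (50%, 24.7 to 75.3), 5 in both (31.2%) and 3 in the control list alone (18.8%), a division close to that of the ribosomal protein names. Highest among the 8 in the cKO list alone were the initiation factor genes Eif3h (79.4) and Eif3f (26.8) and the fusion gene Fau (30.2). Fau encodes a ubiquitin-like protein joined to a ribosomal protein. Of the TOP genes in both lists, Pabpc1 had folds of 89.2 in control and 39.7 in cKO, and Eif3a 88.4 and 25.9. The small size of the TOP list leaves an interval that reaches down to nearly the background of 23.1%.

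**Figure D2:**
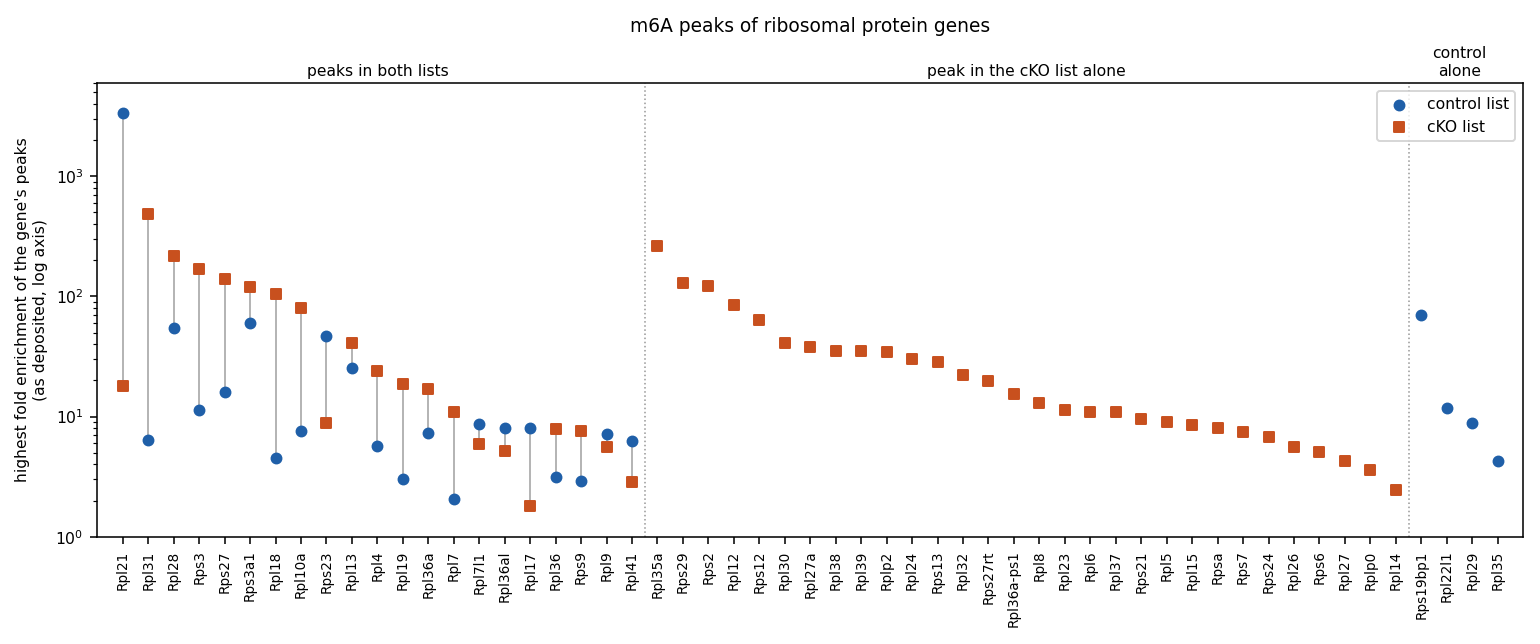
Highest fold enrichment among the peaks of 55 of the 59 protein-coding members (vertical log axis, as deposited), for the control list (blue circles) and the cKO list (orange squares), with a grey line joining the values of genes found in both. Rpl21 stands at 3380 in the control list, the best cKO values are 489 for Rpl31 and 262 for Rpl35a, and 30 of the genes drawn have an orange square only.

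Among the large subunit genes in the cKO list alone, the highest folds belonged to Rpl35a, Rpl12 and Rpl30. Rpl35a, which is mutated in some patients with Diamond-Blackfan anaemia in humans, had 1 peak of fold 262 (mm10) on chromosome 16 from 33058665 to 33058904, rank 45 of the cKO list. Rpl12, a protein at the base of the stalk, had 3 peaks of fold 85.3, 30.9 and 15.5, which lay along the gene from its start to 79 bases before its end. Rpl30 had 1 peak of fold 41.2 and Rpl27a 1 of 38.2. Rpl38, whose loss causes the tail-short phenotype of the mouse, had a peak of 4 exon blocks and fold 35.2 that ran from its 5′ UTR to 2 bases before the gene end. Rpl39, a small protein of the exit tunnel, had a peak of 34.9 in the 3′ UTR class. Rpl24, the gene of the belly spot and tail mutant of the mouse, had 3 peaks of fold 30.2, 11.8 and 7.89. The last 2 of these were met by a control peak of fold 18.9 that the authors assigned to the overlapping gene Gm28037, so Rpl24 was in the cKO list alone by name only. Rpl32 followed at 22.2, Rpl8 at 12.9, Rpl23 at 11.4, and Rpl6 and Rpl37 at 11. Rpl5, which with the 5S ribosomal RNA can bind the p53 ligase Mdm2, was at 9.01. Lower folds belonged to Rpl15 (8.46), Rpl26 (5.59), Rpl27 (4.29) and Rpl14 (2.45).

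Small subunit genes in the cKO list alone were led by Rps29 and Rps2. Rps29, a zinc-binding protein of the small subunit head, had a peak of fold 130 whose 2 blocks ended 29 bases before the gene end. Rps2, a protein of the mRNA entry channel, had one of 121 that ended 28 bases before it. Rps12 (63.3) and Rps13 (28.5) followed. Rps21 was at 9.56, the laminin-receptor precursor gene Rpsa at 8.01, Rps7 at 7.39 and Rps24 at 6.76. Rps6, the substrate of the S6 kinases, had 2 peaks of only 5.03 and 2.62. In the stalk, Rplp2 had a peak of fold 34.6 in the 5′ UTR class and Rplp0, which anchors the P proteins, one of 3.61 in the 3′ UTR class. None of these transcripts had a peak called under its own name in the control list, and a mark below the calling threshold would go unlisted.

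The 4 control-only names were few and mostly of low fold. Rpl29 had a peak of 8.86 in the 5′ UTR class and Rpl35 a coding-sequence peak of 4.28. The Rpl22 paralog Rpl22l1 had 2 peaks of 11.7 and 9.66. Rps19bp1, which is no ribosomal protein, held the highest folds of the group, with 70.5 in its 3′ UTR and 18.1 across 3 coding blocks. No small subunit protein was in the control list alone (0 of 17, 0 to 19.5%).

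Where a ribosomal protein transcript had a control peak, that place was usually called again in the cKO cells. Of the 30 control peaks, 22 (73.3%, 54.1 to 87.7) shared at least 1 base on the same strand with a cKO peak, against 33.7% of all control peaks. Counted from the cKO side, 24 of 68 peaks (35.3%, 24.1 to 47.8) met a control peak, against 41.8% of all cKO peaks, which lies within that interval. Requiring an overlap of at least 50% of both peaks left the control share at 73.3%. Of the 24 names found in both lists, those without a shared place were Rpl17, a protein lining the exit tunnel, and Rpl7l1, a relative of Rpl7. Rpl17 had a control peak of fold 8.05 and, further downstream, a cKO peak of 1.82. Rpl7l1 had a control peak of 8.66 in the 3′ UTR class and a cKO peak of 5.88 that began at the gene start.

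At these 22 shared places the cKO peak was usually the same site drawn wider. It covered more bases in 15 pairs (68.2%, 45.1 to 86.1), the same number in 5 and fewer in 2, Rpl4 and Rps3. Over all 2941 overlapping pairs of a gene the cKO peak was wider in 45.6% and narrower in 45.9%. The median gain was 30 bases for the ribosomal protein pairs and 0 for all pairs. In 18 of 22 pairs (81.8%, 59.7 to 94.8) the peaks had an outer start or end in common, against 37.1% of all pairs, and in 5 pairs, among them those of Rpl21 and Rpl36al, both ends were identical. For Rpl31, for example, the control peak covered 179 and the cKO peak 356 bases, and for Rpl36 the values were 202 and 404.

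Enrichment at the shared places ranked mostly low among control peaks and spread from low to high among cKO peaks. Because the folds of the 2 lists need not share a scale, each was ranked within its own list as a percentile. The 22 control peaks had a median fold percentile of 9.35, and their cKO counterparts of 42.2. The corresponding medians over all pairs were 62.5 and 61.8. The cKO percentile was the higher in 18 of 22 pairs (81.8%, 59.7 to 94.8), against 51.5% of all pairs. Rpl18, Rpl31 and Rpl10a showed the widest gaps upward. Their folds were 4.56 in control and 104 in cKO for Rpl18, 6.44 and 489 for Rpl31, and 7.65 and 79.8 for Rpl10a. Rps3, a protein of the mRNA entry channel, had folds of 11.3 in control and 170 in cKO, and Rps27 had 16.1 and 139. Rpl19, which forms a bridge between the subunits, had 3.05 and 18.6, and Rpl4, a tunnel protein, 5.74 and 23.8. High in both lists were Rpl28 (54.2 and 216) and Rps3a1 (60.0 and 120).

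The 4 pairs that ran the other way were Rpl21, Rps23, Rpl36al and Rpl41. The Rpl21 peak had a fold of 3380 in control cells, rank 2 of the control list, and of 6.10 in cKO cells, with identical ends on chromosome 5 from 146835541 to 146835988 and a deposited p-value of 0 in both. Among the other control peaks of protein-coding members, the highest folds were 70.5 for Rps19bp1, which is no ribosomal protein, and 60.0 for Rps3a1. Rps23, a protein of the decoding centre, had folds of 47.1 and 8.83. Rpl36al had 8.07 and 5.15, and Rpl41, a very small protein, 6.21 and 2.84. For Rpl36al, peaks under the overlapping gene AC099934.3 covered the same place in both lists, so its reads cannot be assigned to either name.

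**Figure D3:**
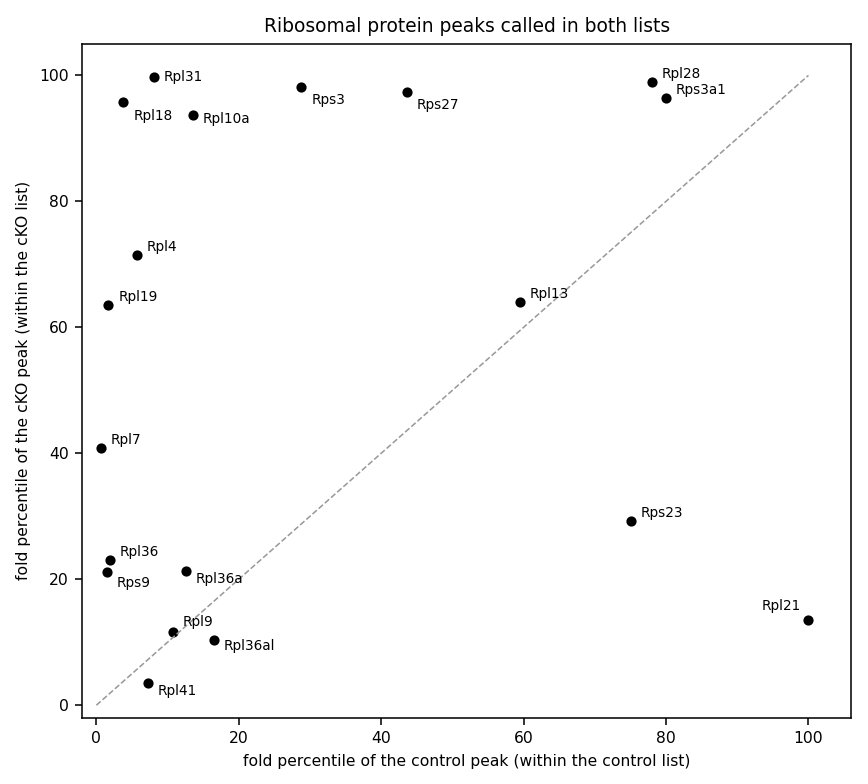
Fold percentile of 19 of the 22 ribosomal protein peaks called at the same place in both lists, within the control list (horizontal axis) and within the cKO list (vertical axis), and a dashed line of equal percentile. The 15 genes drawn above the line include Rpl31 and Rpl18 at the upper left, and Rpl21 and Rps23 lie far below it.

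Peaks of ribosomal protein genes mostly had small p-values for their list. Their folds were mostly low in the control list and spread widely in the cKO list. The median fold was 7.85 among control peaks (quartiles 4.85 and 15) and 11.8 among cKO peaks (7.61 and 35.0), at median percentiles of 14.6 and 43.7. The other peaks had median folds of 19.3 in control (quartiles 10.3 and 47.1) and 13.2 in cKO (8.09 and 26.7). The upper quartile of the cKO list was thus higher for the ribosomal protein peaks. Ranked by the p-value, where a high percentile means a small p, the medians were 72.6 and 88.1. A p-value of 0 was deposited for 14 of 68 cKO peaks (20.6%), against 3.15% of the other cKO peaks, and for 4 of 30 control peaks (13.3%), against 3.72%. A fold in the lower part of the list together with a p in its better part, both split at the 50th percentile, was found for 46.7% of the control and 39.7% of the cKO peaks, against 8.23% and 13.2% of the other peaks. Rps9 is an example, with folds of 2.92 and 7.56 at p-values of 1.0e-173 and 1.0e-217.

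In their annotation class the peaks differed from the rest of both lists. The class exon, which gives no coding or untranslated part, held 40.0% of the control peaks (12 of 30, 22.7 to 59.4) and 47.1% of the cKO peaks (32 of 68, 34.8 to 59.6), against 12.7% and 14.5% of the other peaks. The coding class held 43.3% and 39.7%, against 53.1% and 53.7%. The 3′ UTR class held 4 of 30 and 5 of 68 peaks, against 31.8% and 24.1% of the others. Rps9 and Rpl9 had a 3′ UTR peak in both lists. The 5′ UTR class held Rpl29 in the control list and Rpl24, Rpl32, Rpl38 and Rplp2 in the cKO list, or 5.88% of the cKO peaks against 7.58% of the others.

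Peaks of more than 1 exon block, which cross splice junctions, made up 16 of 30 control peaks (53.3%, 34.3 to 71.7) and 38 of 68 cKO peaks (55.9%, 43.3 to 67.9). The other peaks did so in 28.7% and 48.5% of cases, so the difference from the rest of the list was clear of the interval in control cells and within it in cKO cells. Rpl36 and Rpl38 had the peaks of most blocks, with 4 each in the cKO list. Ribosomal protein genes seldom had more than 1 peak. Of the 28 genes with a control peak 2 had several (7.14%), and of the 55 with a cKO peak 10 did (18.2%), against 38.3% and 35.5% of the other genes. Rpl12, Rpl13 and Rpl24 had 3 each in the cKO list.

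**Figure D4:**
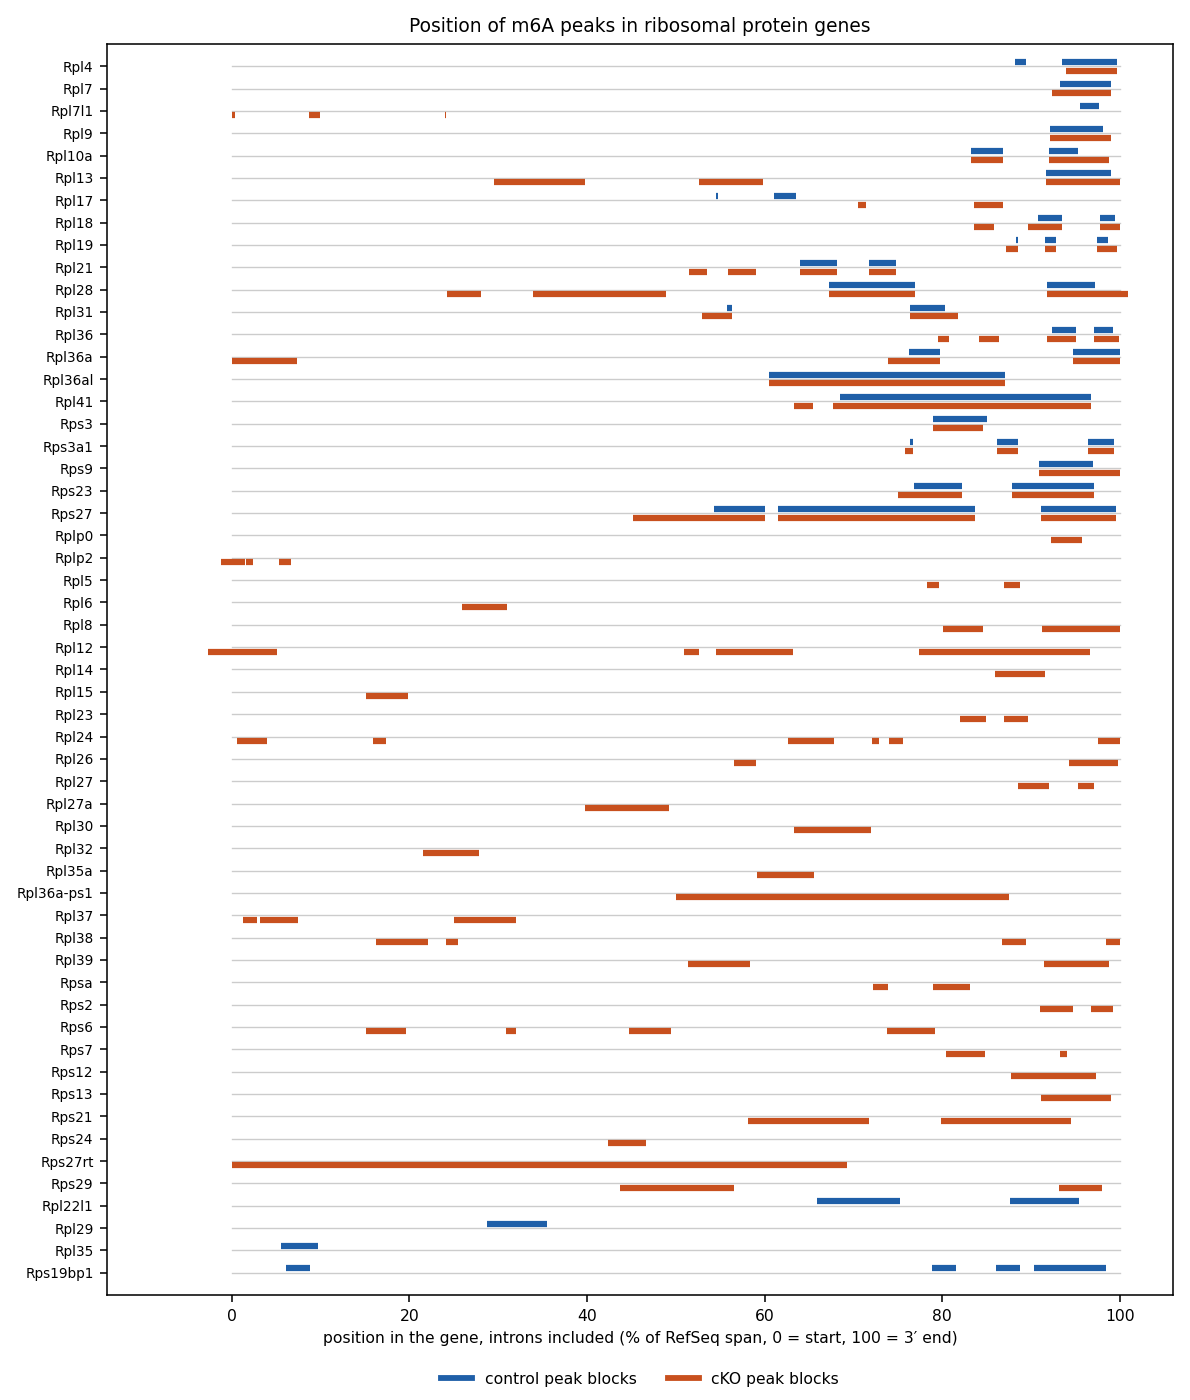
Position of every peak block of 55 of the 59 protein-coding members along the RefSeq gene span (horizontal axis, percent of the span with introns included, start at 0 and 3′ end at 100), control blocks in blue above each grey line and cKO blocks in orange below it. Many blocks lie at the right, near the 3′ end, and blocks at the left edge are orange, as in Rplp2, Rpl12, Rpl36a, Rpl37 and Rpl7l1.

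Many peaks reached the 3′ end of the gene. The outer end lay within 50 bases of the RefSeq gene end for 13 of 30 control peaks (43.3%, 25.5 to 62.6) and 26 of 68 cKO peaks (38.2%, 26.7 to 50.8). For the other peaks this was the case in 2.57% and 7.48%. These genes are short, with median lengths of 3.01 and 3.16 kb against 28.6 and 27.0 kb for the other genes. Among other genes of up to 12 kb, the shares were 6.79% for control and 17.1% for cKO peaks, below both intervals. That limit applies to the span with introns and does not match the lengths of the groups. Transcript length was not compared, so the part of short length in these shares was not tested. Rpl8, Rpl13 and Rps9 had cKO peaks that ended on the last annotated base, as did the peaks of Rpl36a in both lists.

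All 4 cKO peaks that overlapped a RefSeq snoRNA gene lay in ribosomal protein genes, a search made after the lists were seen and on either strand. They included a peak of fold 63.3 in Rps12 over Snora33, one of 22.2 in Rpl32 over Snora7a and one of 18 in Rpl21 over a snoRNA gene that RefSeq lists as LOC115490276. Snora33 lies on chromosome 10 from 23785347 to 23785451, within the Rps12 peak from 23785243 to 23785451. None of the 6632 cKO peaks outside the family overlapped a snoRNA. In the control list 1 of 8397 peaks did, in the snoRNA host gene Snhg1 at fold 10.1, and none of the 30 ribosomal protein peaks. The 4 peaks in ribosomal protein genes had no control counterpart.

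The 9 pseudogene names had 3 control and 9 cKO peaks. Rpl17-ps5 was in both lists, with an overlapping peak of fold 16.9 in control and 66.9 in cKO. Rpl34-ps1 (3.44) and Rps6-ps4 (8.14) were in the control list alone. The cKO list alone held Rps19-ps6 (24.5), Rpl18-ps2 (19.9), Rpl37rt (16.5 and 8.77), Rps4l (14.7 and 14.0), Rpl13-ps3 (9.19) and Rpl28-ps1 (2.99). Of the retrocopies that the lists call protein coding, Rps27rt (19.9) and Rpl36a-ps1 (15.4) were also in the cKO list alone. All 259 bases of the Rps27rt peak also lie within the span of the protein-coding gene Osbpl10, whose share in that peak was not tested. Processed pseudogenes are near copies of their parent mRNAs, and how reads that match several places were handled is not given in the sources used here. Peaks of a parent such as Rpl17 and of its copy therefore cannot be assigned with certainty.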

How the data were processed

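Each genotype had 2 precipitated and 2 input libraries made from 100 µg of fragmented total RNA (100 to 200 nt, 150-bp paired reads), per the labels' protocols. The authors deposited 1 peak list per genotype, in which each peak has a gene, exon blocks, a class, a p-value and a fold enrichment, per the file headers. The fold is a ratio, read here as precipitated over input, which its header does not spell out. The columns with the log10 of the p-value and of the false discovery rate in the deposited lists were treated as a score and not used, because 57 and 313 control cells and 44 and 222 cKO cells held spreadsheet errors. Per the submitters' processing notes, HISAT2, HOMER and mm10 were used, with no roles given. The sources used here do not give the peak caller, the pooling of replicates or the read depth.

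Computation used Python 3.11.15, pandas 2.3.3, numpy 2.4.6, scipy 1.17.1 and matplotlib 3.10.9. Peaks were counterparts when their exon blocks overlapped by 1 bp or more, strand included. Gene spans, snoRNAs and start sequences came from RefSeq (GRCm38.p6). Peak starts were converted to count from 1. In a check on simulated data, all 1013 overlaps planted among 2000 control peaks were found. By the rule for named genes, every member and pseudogene with a peak could be named, with values for all but cKO-only members, where values went to the 12 of highest fold and those in a UTR class. Values of the other cKO-only members were added later. Of each comparison list up to 3 genes per direction were named by highest fold. Members and lists were chosen with earlier results of these data known. Alternatives changed the fold and p thresholds, the overlap, the strand, the gene join and the names counted. Some genes are not reported by name here and are left out of the plots of single genes, but they stay in all counts.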

Additional observations from a re-analysis of the deposited data

How the results depend on the processing

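No paired analysis was possible because each genotype has 1 peak list with no value per library. Of 51 recomputed values, 42 stayed within the interval, the count range or the quartiles of the reported value. The other 9 moved as follows, and the cause was not tested. With folds of 10 or more, the share of names in the cKO list alone was 75.7%, the share in both lists 16.2%, the peak numbers 10 in control and 41 in cKO, and the share of control peaks in the 5′ UTR class 0. With folds of 5 or more, the share in both lists was 27.8%. Among control peaks without a counterpart, 25% had more than 1 block (2 of 8). Ranked by the p-value, the median percentiles were 72.6 in control and 88.1 in cKO. The share in the cKO list alone ran from 50.8% to 75.7% over all settings. The settings that counted only subunit proteins (54.7%) or peaks under another gene name (50.8%) were chosen after seeing the data. Depth per library is unknown, so peaks missing from a list have no detection limit.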
